A study of Mus musculus with 6 samples.

Results

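The genes described here encode alpha and beta subunits of the GABA-A receptor: Gabra2, Gabra3, Gabra4, Gabra5, Gabra6, Gabrb1 and Gabrb2. They were chosen by name, as 5 alpha and 2 beta members among the 49568 gene names in each deposited file, and they belong to a family of 19 GABA-A subunit rows. RNA was sequenced from neurons of the preBötzinger complex (preBötC), the site in the brainstem where inspiratory rhythm originates, to compare the transcripts of Dbx1 and non-Dbx1 neurons. There were 3 Dbx1 samples and 3 non-Dbx1 samples, each of 15 neurons from a different mouse at postnatal day 2.

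All the mice carried the same alleles, Dbx1CreERT2, a tamoxifen-inducible Cre recombinase driven from the Dbx1 locus, and Rosa26tdTomato, a Cre-dependent red fluorescent reporter, and their mothers had received tamoxifen during gestation. Dbx1 neurons were those with tdTomato fluorescence. Non-Dbx1 neurons were somata with neuronal shape but without tdTomato, so they could include Dbx1-derived neurons in which the inducible recombinase had not acted. Neurons were drawn one at a time into micropipettes, and each sample pooled 15 of them. Dbx1 itself, a transcription factor of embryonic progenitors, was listed at 0 in all 6 samples and could not serve as a check of the labels.

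GABA-A receptors are chloride channels built from 5 subunits arranged in a ring, most often alpha, beta and gamma subunits together. GABA binds where a beta subunit meets an alpha subunit, and benzodiazepines bind where an alpha subunit meets a gamma subunit. The alpha subunit present sets much of a receptor's kinetics, its sensitivity to GABA and its place in the membrane, and in newborn neurons the chloride gradient can make GABA less inhibitory than in the adult.

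One codon in each gene marks the property by which pharmacologists divide these subunits. In alpha subunits it encodes a residue of the benzodiazepine site, where histidine allows classical benzodiazepines such as diazepam to bind and arginine does not. The 51 coding bases around this codon are shown 5′ to 3′ with the codon in capitals, for the 3 members with histidine and then for the 2 with arginine.
Gabra2: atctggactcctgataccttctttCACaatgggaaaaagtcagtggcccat
Gabra3: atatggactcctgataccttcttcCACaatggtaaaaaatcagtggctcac
Gabra5: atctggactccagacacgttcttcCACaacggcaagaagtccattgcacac
Gabra4: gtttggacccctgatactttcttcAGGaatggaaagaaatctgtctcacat
Gabra6: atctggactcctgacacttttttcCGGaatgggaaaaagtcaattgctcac

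In the GRCm38 assembly with GENCODE vM21 annotation, these codons lay at chr5:71014505-71014507 in Gabra2, chrX:72501168-72501170 in Gabra3 and chr7:57488891-57488893 in Gabra5, each in exon 5 of 10 of the transcript read. They lay at chr5:71641152-71641154 in Gabra4 and chr11:42317647-42317649 in Gabra6, each in exon 4 of 9. All 5 genes are transcribed from the minus strand. Over the 10 pairs of alpha windows, 34 to 45 of the 51 bases were identical, the most between Gabra2 and Gabra3.

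In beta subunits the codon encodes a residue of the second membrane-spanning segment, which lines the pore. Asparagine there gives sensitivity to etomidate and loreclezole, whereas serine lowers it. Gabrb1 has serine and Gabrb2 has asparagine.
Gabrb1: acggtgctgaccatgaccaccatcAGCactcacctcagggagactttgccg
Gabrb2: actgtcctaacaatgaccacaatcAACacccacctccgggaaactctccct

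The beta codons lay at chr5:72121981-72121983 in exon 8 of 9 of Gabrb1 and at chr11:42597573-42597575 in exon 8 of 10 of Gabrb2, both on the plus strand. The beta windows shared 39 of 51 bases. With reads of about the length of these windows, such similarity bears on whether the genes can be told apart. The longest run of bases common to the transcripts of any pair of members was 24 on the same strand, over 21 pairs, and 65 on opposite strands, between Gabra2 and Gabra3, which was the only pair over 30.

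The genes fall into 4 places in the genome. Gabra2 (ENSMUSG00000000560, chr5:70957597-71095849, minus strand), Gabra4 (ENSMUSG00000029211, chr5:71569749-71658308, minus strand) and Gabrb1 (ENSMUSG00000029212, chr5:71658113-72149037, plus strand) form a cluster of 3 members on chromosome 5. Gabra6 (ENSMUSG00000020428, chr11:42306437-42321072, minus strand) and Gabrb2 (ENSMUSG00000007653, chr11:42419757-42629028, plus strand) are 2 members on chromosome 11, 98.7 kb apart. Gabra5 (ENSMUSG00000055078, chr7:57407672-57510059) and Gabra3 (ENSMUSG00000031343, chrX:72432681-72656848) are both on the minus strand. The spans of Gabra4 and Gabrb1 overlapped by 196 bases, of which 46 were exonic in both genes on opposite strands, or 0.756% of Gabra4 exons and 0.332% of Gabrb1 exons. Of the Gabra5 exons, 148 bases (4.98%) were shared with Gm9962, a gene on the opposite strand. Reads were counted without regard to strand, so reads in these stretches could not be assigned to one strand.

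Levels are given as RPKM, a read count scaled to exon length and to the number of reads on genes in the sample, which the authors deposited without scaling between samples. Reads on genes numbered from 6464675 to 9432958 per sample, and 3 reads on 1000 bases corresponded to an RPKM of between 0.318 and 0.464. Neuronal marker transcripts were abundant in all samples, with 7 markers summing to between 1331 and 2211 RPKM. Slc17a6, which encodes the vesicular glutamate transporter of these neurons, measured between 47.2 and 128 RPKM in Dbx1 samples and between 13.6 and 35.1 RPKM in non-Dbx1 samples. The 4 haemoglobin transcripts summed to between 89.6 and 505 RPKM in Dbx1 samples and between 732 and 13946 RPKM in non-Dbx1 samples, and none was at 0 in every sample. Non-Dbx1 replicate 1 stood apart, with the highest haemoglobin sum and with 434 RPKM over 7 oligodendrocyte markers, against 19.9 to 73.6 RPKM in the other samples. Non-Dbx1 replicate 2 had 63.7 RPKM of the endothelial marker Cldn5, against at most 1.64 RPKM elsewhere, while the other endothelial marker, Pecam1, was at 0.0343 RPKM there and at 0.507 RPKM in Dbx1 replicate 2. Non-Dbx1 replicate 3 had 62.3 RPKM over 4 cholinergic and motor neuron markers, against at most 20.4 RPKM elsewhere. Slc18a3 was at 37.0 RPKM there and at most 7.60 RPKM elsewhere. Isl1 was at 13.3 RPKM there and at 0 in the other 5 samples. Chat was also highest there. Slc5a7 was not, at 7.91 RPKM against 10.9 RPKM in non-Dbx1 replicate 2 and 8.52 RPKM in Dbx1 replicate 3. The summed levels of the inhibitory, cholinergic, astrocyte, oligodendrocyte, microglial and endothelial lists overlapped between the groups. Slc17a6, haemoglobin and these single-library markers moved with the groups or with 1 library, and their part in the differences below was not tested. In pooled neurons, fewer cells of a type and less RNA per cell cannot be told apart.

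**Figure D1:**
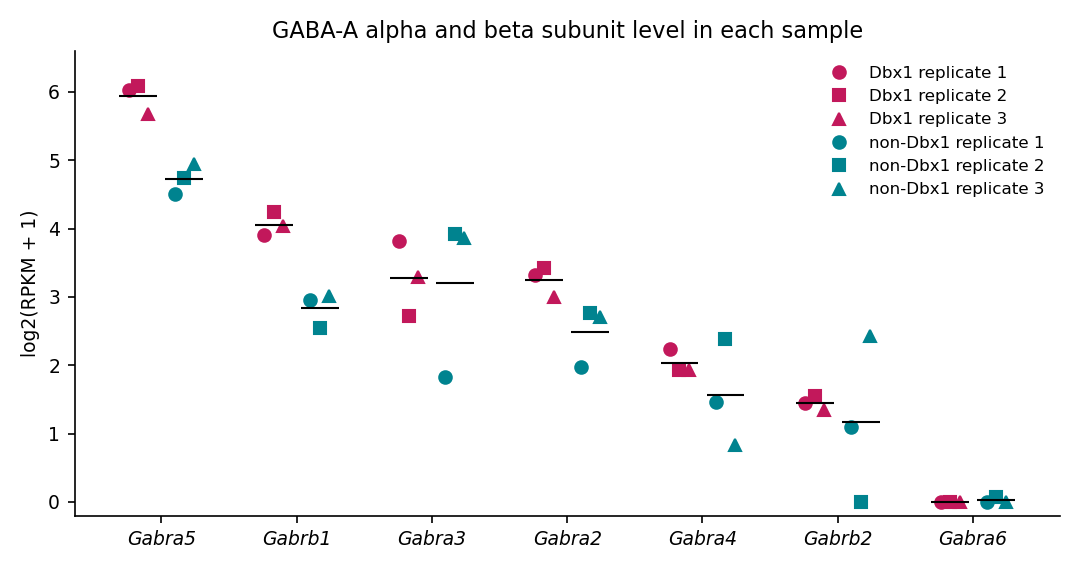
Level of each member in each sample, as log2(RPKM + 1), with members in order of mean RPKM. Magenta symbols are the 3 Dbx1 samples, teal symbols are the 3 non-Dbx1 samples and black lines are the means on this scale; the magenta and teal symbols do not overlap for Gabra5, Gabrb1 and Gabra2, and Gabra6 lies at or near 0.

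Gabra5 was the most abundant member in every sample, and its level in each Dbx1 sample exceeded that in each non-Dbx1 sample. Gabra5 encodes an alpha subunit known from receptors outside the synapse that carry tonic inhibition. In Dbx1 replicates 1, 2 and 3 its RPKM was 64.05, 67.2 and 50.3, and non-Dbx1 replicates 1, 2 and 3 gave 21.7, 25.7 and 29.9. The lowest Dbx1 sample lay well above the highest non-Dbx1 sample. These values rested on between 727 and 2636 reads per sample. The means were 60.5 ± 8.97 and 25.8 ± 4.08 RPKM (SD, n = 3 each), a ratio of 2.35. On the log2(RPKM + 1) scale the difference between Dbx1 and non-Dbx1 samples (L2FC) was 1.20 (SE 0.243, 95% interval 0.65 to 1.76). In limma over all genes, Gabra5 ranked 21 of 17614 by its unadjusted p, but it did not pass the threshold of FDR under 0.1 (FDR = 0.697). The exact permutation test gave p = 0.10 (two-sided), the smallest that 3 samples against 3 allow. Without non-Dbx1 replicate 1 the L2FC of Gabra5 was 1.09.

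Gabra2 also had a higher level in each Dbx1 sample than in each non-Dbx1 sample. Gabra2 encodes an alpha subunit common in immature neurons and at synapses near the axon's start. Dbx1 replicates gave an RPKM of 8.95, 9.75 and 7.01, and non-Dbx1 replicates one of 2.93, 5.79 and 5.52. The groups did not overlap, and the lowest value came from non-Dbx1 replicate 1. The means were 8.57 ± 1.41 and 4.75 ± 1.58 RPKM (SD, n = 3 each), from 274 to 1063 reads per sample. The L2FC was 0.77 (SE 0.418, 95% interval -0.19 to 1.72), which did not pass the threshold in limma (FDR = 0.924). Without non-Dbx1 replicate 1 the L2FC was 0.51.

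Gabra3 varied widely between samples within both groups. Gabra3 encodes an alpha subunit found in brainstem monoaminergic and reticular neurons, among others. Its RPKM was 13.1, 5.61 and 8.76 in Dbx1 neurons, whereas the non-Dbx1 replicates measured 2.55, 14.1 and 13.6. Both the lowest and the highest value were in non-Dbx1 samples, so that the groups overlapped. The means were 9.16 ± 3.76 and 10.1 ± 6.53 RPKM (SD, n = 3 each), from 83 to 646 reads. The L2FC of 0.07 (SE 0.615, 95% interval -1.33 to 1.48) had no stable sign, since it was -0.62 without non-Dbx1 replicate 1 and -0.20 without Dbx1 replicate 1. The interval leaves room for a difference of more than 1 on the log2 scale in both directions.

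Gabra4 and Gabra6 encode the alpha subunits with arginine at the benzodiazepine site, and both are known to join extrasynaptic receptors. Gabra4 in Dbx1 replicates was at 3.74, 2.81 and 2.81 RPKM, and in non-Dbx1 replicates at 1.76, 4.23 and 0.774 RPKM. The Dbx1 samples lay close together, within the wider range of the non-Dbx1 samples. The means were 3.12 ± 0.533 and 2.25 ± 1.78 RPKM (SD, n = 3 each), and the L2FC was 0.48 (SE 0.600, 95% interval -0.90 to 1.85; limma, FDR = 0.960). Without non-Dbx1 replicate 2 the L2FC of Gabra4 was 0.89, and without non-Dbx1 replicate 3 it was 0.11.

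Gabra6, best known from cerebellar granule cells, was at 0 in 5 samples and at 0.0510 RPKM in non-Dbx1 replicate 2. This corresponds to 2 reads when its length is taken as the sum of its annotated exons. A count of 0 allowed a level of up to 0.101 RPKM, taken as 3 reads in the shallowest sample, which covers counting error only. Gabra6 was not detectable above that level in either group and was not tested. The 3 granule cell markers fixed for comparison summed to between 2.28 and 12.8 RPKM. Neurod1, which other neurons also express, made up most of each sum, at 1.76 to 12.8 RPKM. Pax6 was at most 0.526 RPKM. Cbln3 was at 0 in every non-Dbx1 sample and at most 0.352 RPKM in Dbx1 samples.

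Gabrb1 likewise had each Dbx1 sample above each non-Dbx1 sample. Gabrb1 encodes the beta subunit with the serine codon shown above, and beta subunits are required for receptors to reach the membrane. Dbx1 replicates 1, 2 and 3 had an RPKM of 14.0, 17.8 and 15.4, and non-Dbx1 replicates 1, 2 and 3 had 6.74, 4.82 and 7.08. The lowest Dbx1 sample was replicate 1 and the highest non-Dbx1 sample was replicate 3, with a wide gap between them. The means were 15.7 ± 1.96 and 6.21 ± 1.22 RPKM (SD, n = 3 each), a ratio of 2.53, from 578 to 1884 reads per sample. The L2FC was 1.22 (SE 0.329, 95% interval 0.47 to 1.97). Gabrb1 ranked 119 of 17614 by unadjusted p in limma and did not pass the threshold (FDR = 0.787), and the exact permutation test again gave p = 0.10. Without non-Dbx1 replicate 1 the L2FC of Gabrb1 was 1.28.

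Gabrb2 had the widest spread relative to its mean among non-Dbx1 samples of the 6 members tested. Gabrb2 encodes the beta subunit with the asparagine codon, which is part of the most common adult receptor. Dbx1 replicates lay at 1.73, 1.94 and 1.55 RPKM, whereas non-Dbx1 replicates lay at 1.13, 0 and 4.40 RPKM. Non-Dbx1 replicate 2 had no read on Gabrb2, where 3 reads would be 0.0435 RPKM, and non-Dbx1 replicate 3, the sample with the most cholinergic and motor neuron marker RPKM, had 335 reads, the most of any sample. The part of those markers in this value was not tested. The means were 1.74 ± 0.197 and 1.85 ± 2.29 RPKM (SD, n = 3 each). The coefficient of variation was 11.3% in Dbx1 samples and 124% in non-Dbx1 samples. The L2FC was 0.28 (SE 0.680, 95% interval -1.28 to 1.83; limma, FDR = 0.980). It was -0.31 without non-Dbx1 replicate 2, 0.91 without non-Dbx1 replicate 3, 1.16 with a pseudocount of 0.1 and 2.41 with voom on recovered reads.

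**Figure D2:**
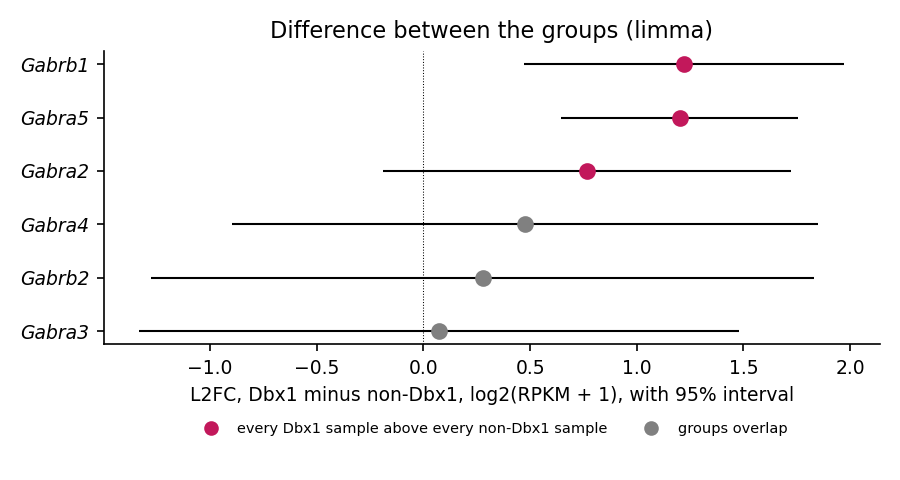
L2FC of the 6 members tested, Dbx1 minus non-Dbx1, on the log2(RPKM + 1) scale, with limma's 95% interval. Magenta points mark members whose groups did not overlap and grey points those whose groups overlapped; the intervals of Gabra5 and Gabrb1 lie above 0 and those of the other members cross it.

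Of the 7 members, 6 entered the test, for which a gene needed a value above 0 in 3 or more samples, and Gabra6 did not. No member passed FDR under 0.1, which 1 of the 17614 genes tested passed (0.00568%). At an unadjusted p under 0.05, 2 members were higher in Dbx1 samples and 0 in non-Dbx1 samples, against 2.73% and 2.48% of all genes tested. For 3 members every Dbx1 sample lay above every non-Dbx1 sample, where 5.35% of genes did so, and 0 members were separated the other way, where 5.24% did. The L2FC was above 0 for all 6 members tested, with a median of 0.62. For Gabra3 and Gabrb2 this sign was not stable, since the log2 ratio of mean RPKM was -0.14 and -0.083. Over all genes tested, the L2FC was above 0 for 8953 and below 0 for 8661, with a median of 0.01. Without non-Dbx1 replicate 1 the same 3 members were separated, as were 10.8% of genes, but leaving out a sample cannot end a separation.

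The remaining 12 GABA-A subunit rows had L2FC values on both sides of 0, and 2 were at 0 in every sample. Of these rows, 6 entered the test, 2 with an L2FC above 0 and 4 below 0, with a median of -0.33, and 0 passed FDR under 0.1. At an unadjusted p under 0.05, 0 were higher in Dbx1 samples and 1 (Gabrq) in non-Dbx1 samples, against 2.73% and 2.48% of all genes tested. The highest L2FC among them was 0.87. In 1 of them every Dbx1 sample lay above every non-Dbx1 sample, where 5.35% of all genes tested did so. The opposite separation was found in 0 of them, against 5.24% of all genes tested. The row with the lowest L2FC was Gabrq, which encodes the theta subunit. Gabrq measured 4.11, 0.134 and 0.484 RPKM in Dbx1 samples and 3.96, 4.43 and 9.91 RPKM in non-Dbx1 samples. Its L2FC was -1.70 (SE 0.726; limma, FDR = 0.912), and the groups overlapped through Dbx1 replicate 1.

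Proteins that assemble, traffic and anchor GABA-A receptors were examined as a list of 19 genes, all of which entered the test. An L2FC above 0 was found for 9 of them and below 0 for 10, with a median of -0.10, and 0 passed FDR under 0.1 or an unadjusted p under 0.05. The values ran from -0.73 for Plcl1, which binds receptor beta subunits and phosphatases, to 0.54 for Arfgef2, an exchange factor of the trans-Golgi network. A second list held 10 genes that make, package, clear or break down GABA or set the chloride gradient. Of these, 3 had an L2FC above 0 and 7 below 0, with a median of -0.38, and 0 passed either threshold. The values ran from -0.82 for Slc12a2, a chloride importer, to 0.59 for Aldh5a1, a mitochondrial enzyme of GABA breakdown.

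The proportion of Gabra5 to Gabrb1 ranged from 3.22 to 5.34 over the 6 samples. The ratio of Gabra5 to Gabrb1 RPKM was 4.59, 3.77 and 3.27 in Dbx1 samples and 3.22, 5.34 and 4.22 in non-Dbx1 samples. The ratios of the groups overlapped, although the level of each gene did not.

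**Figure D3:**
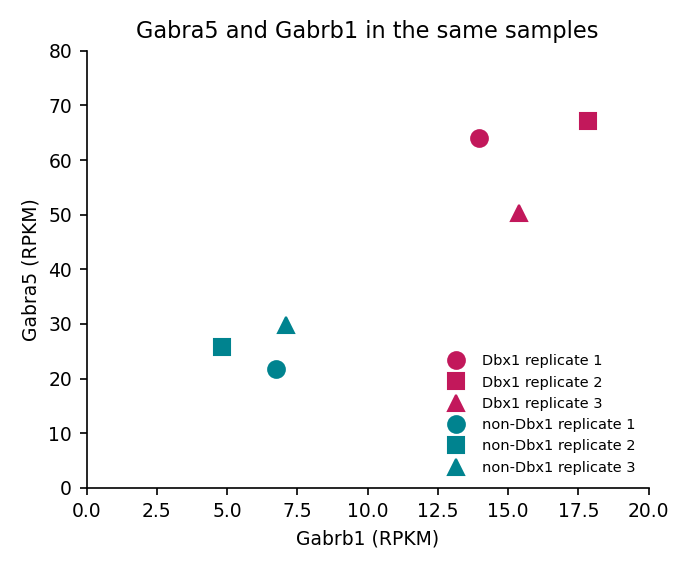
RPKM of Gabra5 against RPKM of Gabrb1 in each of the 6 samples, with magenta for Dbx1 and teal for non-Dbx1. The 3 Dbx1 samples lie at 50.3 to 67.2 RPKM of Gabra5 and the 3 non-Dbx1 samples at 21.7 to 29.9 RPKM, with a gap between the groups on both axes.

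Promoter windows are shown for Gabra5 and Gabrb1, the members with the smallest p. In Gabra2, too, every Dbx1 sample lay above every non-Dbx1 sample, but its window and a further Gabrb1 window are only described. Each printed window holds the 250 bases before the RefSeq start site and the 50 from it on (GRCm38.p6). They run 5′ to 3′ along the gene, with CG dinucleotides in capitals. The Gabra5 window is chr7:57510010-57510309 on the minus strand and the Gabrb1 window is chr5:71699682-71699981 on the plus strand. The start site of this Gabrb1 window, chr5:71699932, lies inside the Gabrb1 gene, whose annotated 5′ end is at chr5:71658113.
Gabra5: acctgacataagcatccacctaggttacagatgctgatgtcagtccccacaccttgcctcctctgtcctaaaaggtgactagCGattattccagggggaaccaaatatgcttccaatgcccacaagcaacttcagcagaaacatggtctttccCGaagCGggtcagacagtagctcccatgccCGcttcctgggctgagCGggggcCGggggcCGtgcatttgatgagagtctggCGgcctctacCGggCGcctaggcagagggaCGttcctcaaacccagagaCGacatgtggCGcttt
Gabrb1: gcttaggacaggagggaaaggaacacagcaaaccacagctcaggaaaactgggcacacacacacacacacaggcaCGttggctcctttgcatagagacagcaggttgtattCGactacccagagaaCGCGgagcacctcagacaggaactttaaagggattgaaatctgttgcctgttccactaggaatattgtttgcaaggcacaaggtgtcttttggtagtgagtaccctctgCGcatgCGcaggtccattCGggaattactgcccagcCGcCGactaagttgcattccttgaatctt

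The Gabra5 window held 13 CG dinucleotides and the Gabrb1 window 9, against a median of 7 over 32851 promoter windows of this length. A further RefSeq start of Gabrb1, at chr5:71657921, had 25 CG dinucleotides in its window and lay 387 bases from the start of Gabra4 (chr5:71658308), inside the Gabra4 gene and on the opposite strand. All 7 members matched the RefSeq table, in 11 windows. CG counts of the others ran from 0 in both Gabra3 windows and 2 in Gabra6 to 25 in Gabra2.

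5 short motifs were searched on both strands of each window. The core of the NRF1 site (GCGCATGC) was present in the printed Gabrb1 window and in 2.71% of all windows, and in no other member window. The TATA box (TATAAA) was present in both Gabra3 windows and in 1 of the Gabrb2 windows, and in 13.6% of all windows. The GC box (CCGCCC) was present in the windows of Gabra2 and Gabra4 and in 1 of Gabrb2, and in 35.7% of all windows. The cyclic AMP response element (TGACGTCA) and the homeodomain core (TAATTA) were in no member window and in 1.79% and 5.29% of all windows. The Gabra5 window held none of the 5 motifs. These matches describe the letters in the windows only.

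Across all 6 samples the order of mean RPKM was Gabra5 (43.1), Gabrb1 (11.0), Gabra3 (9.62), Gabra2 (6.66), Gabra4 (2.69), Gabrb2 (1.79) and Gabra6 (0.0085). This order pools both groups. Mean RPKM of Gabrb1 was above that of Gabra3 in Dbx1 samples (15.7 against 9.16) and below it in non-Dbx1 samples (6.21 against 10.1). Gabra5 exceeded Gabrb1 in 6 of 6 samples, by 1.88 on the log2(RPKM + 1) scale, and Gabra2 exceeded Gabra4 in 6 of 6 samples, by 1.07. Both gave p = 0.0312 in an exact sign-flip permutation test, the smallest that 6 samples allow, and 0.0938 after Benjamini-Hochberg adjustment over the 6 neighbour pairs. Gabrb1 exceeded Gabra3 in 4 samples and Gabra3 exceeded Gabra2 in 4 samples, so these neighbours did not differ beyond their spread (exact sign-flip permutation test, adjusted p = 0.656 and 0.422). Among the lower neighbours, Gabra4 was above Gabrb2 in 5 samples and Gabrb2 above Gabra6 in 5 samples (exact sign-flip permutation test, adjusted p = 0.525 and 0.125). Gabrb2 lay below Gabra6 only in non-Dbx1 replicate 2, with 0 reads against 2. With 1 sample reversed the test could not reach its smallest p, so it cannot decide this pair. The neighbours were chosen by the order of these same values.

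Levels of different genes depend on the exon length used, and the length behind the deposited RPKM exceeded the merged exon length of these genes. It could be recovered from the values, and for Gabra2 it was 14478 bases where merged exons of GENCODE vM21 cover 7640 bases, a ratio of 1.9. For Gabra4, Gabra5 and Gabra6 the ratio lay between 1.62 and 1.84, for Gabra3 and Gabrb2 it was 1.28 and 1.27, and for Gabrb1 it was 1.01. Gabra6 was above 0 in 1 sample only, which cannot fix a length. Its length of 4582 bases is the annotated sum of its distinct exons, so its ratio rests on the annotation. Of 11504 genes whose merged length differs from the sum of their distinct annotated exons, 2331 (20.3%) matched the sum exactly and 19 (0.165%) the merged length. The values fix a length only up to a multiple. Where the sum was a multiple of the smallest length found, the sum was taken, and the merged length was tried only after it. These counts therefore favour the sum by construction and are not an independent check. Most of these genes matched neither length exactly, while 53.8% lay within 10% of the sum and 8.17% within 10% of the merged length. Among the members only Gabra5 and Gabra6 had a length equal to the sum. The others exceeded it, such as Gabra2 with 14478 against 13403 bases and Gabrb1 with 14026 against 13934 bases. The sum counts bases shared by alternative exons more than once. With merged lengths the order became Gabra5 (75.1 RPKM), Gabra2 (12.6), Gabra3 (12.4), Gabrb1 (11.1), Gabra4 (4.36), Gabrb2 (2.27) and Gabra6 (0.0157). Gabra5 stayed first, whereas Gabra2 moved from the fourth place to the second. The length cancels when samples are compared for 1 gene, so the L2FC values were affected only through the pseudocount of 1.

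**Figure D4:**
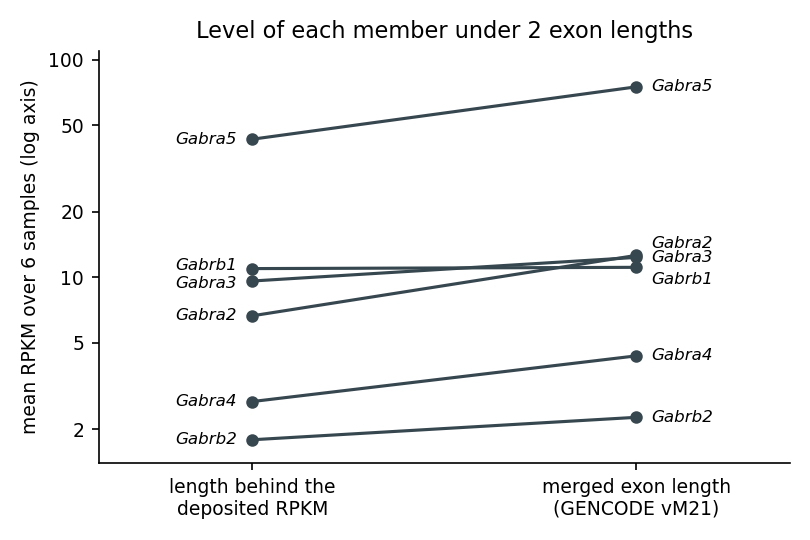
Mean RPKM over 6 samples of the 6 members above the detection level, on a log axis, with the exon length behind the deposited RPKM at left and the merged exon length of GENCODE vM21 at right. Lines join the values of 1 gene; Gabra5 is highest on both sides and the line of Gabra2 crosses those of Gabra3 and Gabrb1.

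Gabra5 made up the largest share of the RPKM of the 5 alpha members in every sample. Its share of the summed RPKM of the 5 alpha members was 71.3%, 78.7% and 73.0% in Dbx1 samples, and 75.0%, 51.5% and 60.0% in non-Dbx1 samples. On this denominator the groups overlapped through non-Dbx1 replicate 1. The share averaged 74.3% ± 3.87 and 62.2% ± 11.9 (SD, n = 3 each). Over all 6 alpha rows of the family the share was 66.7%, 76.5% and 66.6% in Dbx1 replicates and 59.3%, 46.4% and 49.5% in non-Dbx1 replicates, so that the groups no longer overlapped. It then averaged 69.9% ± 5.71 and 51.7% ± 6.68. By recovered reads among the 5 members, which are not scaled to length, it was 40.3% in non-Dbx1 replicate 2 and 49.8% in non-Dbx1 replicate 3. Gabra2 held a steady share, between 9.96% and 11.6% in all 6 samples, whereas Gabra3 ranged from 6.58% to 28.3%. In non-Dbx1 replicates 2 and 3, where the share of Gabra5 was lowest, that of Gabra3 was highest.

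**Figure D5:**
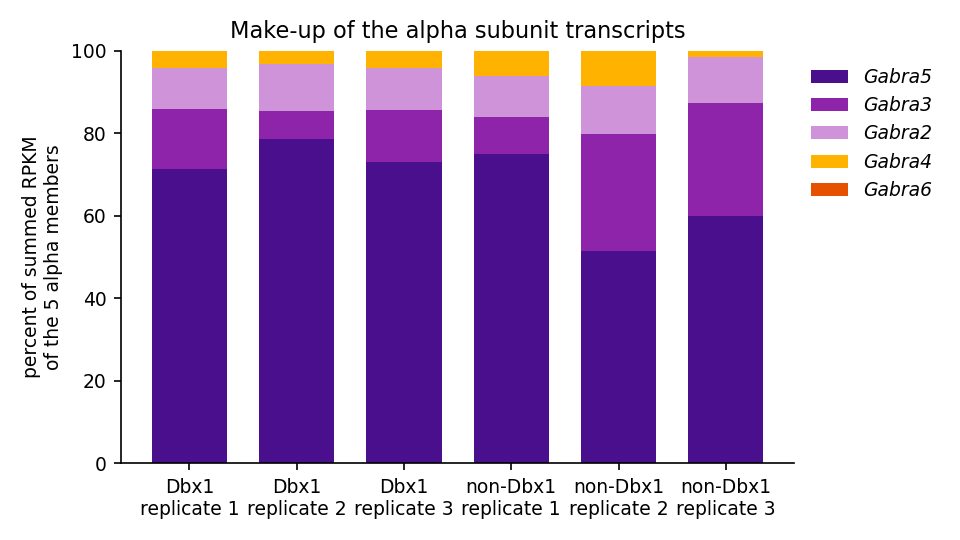
Percent of the summed RPKM of the 5 alpha members held by each, in each of the 6 samples, as stacked bars that add to 100%. Purple shades are the members with histidine at the benzodiazepine site and yellow and orange those with arginine; Gabra5 fills between 51.5% and 78.7% of each bar and Gabra6 is too low to be seen.

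Grouped by the codon shown above, the 3 members with histidine made up between 91.4% and 98.4% of alpha member RPKM in each sample, and the 2 with arginine between 1.55% and 8.59%. The summed RPKM of the 5 alpha members was 89.8, 85.4 and 68.9 in Dbx1 samples and 29.0, 49.9 and 49.8 in non-Dbx1 samples. Gabra5 alone accounted for most of the distance between these sums.

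Gabrb1 made up most of the RPKM of the beta member pair. Its share was 89.0%, 90.2% and 90.9% in Dbx1 samples and 85.6%, 100% and 61.7% in non-Dbx1 samples. The Dbx1 samples lay within 2 percentage points of each other, and the non-Dbx1 samples followed the spread of Gabrb2. Over all 3 beta rows of the family the Gabrb1 share averaged 48.7% ± 1.78 in Dbx1 and 40.7% ± 11.99 in non-Dbx1 samples, and with merged exon lengths 30.2% ± 1.71 and 24.8% ± 9.69.

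Genes with the most similar pattern were sought among 7055 genes with a mean RPKM of at least 5, by the root mean square distance between centred log2(RPKM + 1) values over the 6 samples. Nearest to Gabra5 were Plrg1 (0.117), a spliceosome component, and Tmco1 (0.161), a protein of the endoplasmic reticulum. Nearest to Gabrb1 were Rbfox1 (0.179), a splicing regulator of neurons, and Memo1 (0.212). Gabra5 and Gabrb1 were each other's nearest member at 0.232, with Gabrb1 at rank 7 from Gabra5 and Gabra5 at rank 6 from Gabrb1.

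Nearest to Gabra2 were Nsdhl (0.121), an enzyme of cholesterol synthesis, and Arhgap24 (0.148). Nearest to Gabra3 were AK010878 (0.168) and As3mt (0.168), an arsenic methyltransferase. The nearest member to Gabra2 was Gabra5, at rank 125 (0.270), and the nearest to Gabra3 was Gabra2, at rank 1437 (0.668). The genes compared share the 6 libraries, so these distances are descriptions.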

How the data were processed

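RNA from 6 samples was made into amplified cDNA with the SMART-Seq v4 kit and sequenced as single-end reads. The authors aligned reads to mm10 with TopHat2, processed them with SAMtools, counted them on genes with HTSeq without strand and deposited RPKM per gene name, normalised by exon length of an Ensembl annotation. The annotation release is not given in the sources used here. The authors tested counts with DESeq2 at FDR 0.1. The values used here are RPKM, so log2(RPKM + 1) was tested with limma 3.58.1 (trend, two-sided) in R 4.3.3 on the 17614 genes whose value exceeded 0 in 3 or more samples, with Benjamini-Hochberg adjustment and the same threshold.

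Each library total was the most common value obtained when genes were taken to have a single read on their merged exon length of GENCODE vM21. The length of a gene was then the smallest that turned its RPKM into whole reads in every sample above 0, with a tolerance of 2e-05. Such a length was found for 27060 of 27067 genes above 0. The recovered reads and lengths therefore rest on these totals. Where the sum of distinct annotated exons was a multiple of the length found, that sum was used. Otherwise the merged length was tried in the same way. Amplified reads are not independent molecules, so floors cover counting error only. Each sample came from a different mouse. Single genes were compared by exact permutation tests in Python 3.11.15 with scipy 1.17.1 and numpy 2.4.6. Positions came from GENCODE vM21 on GRCm38, the assembly of mm10, and promoters from RefSeq.

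The rule for named genes took every member, the largest L2FC in each direction of the other subunits and of both lists, any gene past FDR 0.1, and the 2 most similar genes of each member with a mean RPKM of at least 5. Members and lists were chosen with earlier results of these data known. Some genes are not reported here. Alternatives were a pseudocount of 0.1, other filters, quantile normalization, size factors, limma with no trend, voom on recovered reads, a replicate block, the ratio of means, and each sample left out.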

Additional observations from a re-analysis of the deposited data

How the results depend on the processing

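No member passed FDR under 0.1 in any of 14 alternatives, and 2 to 3 members had p under 0.05 with higher levels in Dbx1 samples. The L2FC ranged from 1.09 to 1.33 for Gabra5, from 1.07 to 1.35 for Gabrb1 and from 0.51 to 0.91 for Gabra2. Genes with FDR under 0.1 and higher in non-Dbx1 samples numbered 1; they numbered 0 with a pseudocount of 0.1, with all genes above 0 in at least 1 sample, with the replicate block and with voom, 3 without the trend, and 0 to 1 when each sample was left out (0 without non-Dbx1 replicate 2 or 3). Those higher in Dbx1 samples numbered 0 to 1 when each sample was left out (1 without non-Dbx1 replicate 2). Reversed signs were those of Gabra3 (-0.62 to 0.43 when each sample was left out, -0.14 as the ratio of means) and of Gabrb2 (-0.31 to 0.91, and -0.083 as the ratio of means, but 1.16 with a pseudocount of 0.1 and 2.41 with voom); the cause was not tested. In the order of levels, Gabrb1 over Gabra3 turned to -0.10 with merged lengths and -0.37 in non-Dbx1 samples alone, and ran from -0.054 to 0.52 when each sample was left out; Gabra3 over Gabra2 turned to -0.12 with merged lengths. The share of Gabra5 was 69.9% in Dbx1 samples over every alpha row, and 60.9% and 50.3% by recovered reads in Dbx1 and non-Dbx1 samples. That of Gabrb1 was 48.7% and 40.7% over every beta row and, in Dbx1 samples, 94.0% by recovered reads. Chosen after seeing the data, merged lengths gave 87.8% of the member pair, and the members whose groups did not overlap numbered 3 with size factors and 3 to 4 when each sample was left out, which can only keep or add to them.

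Replicate numbers did not pair the samples, which came from different mice. Deviations of same-numbered samples correlated at -0.129 to 0.0238, and not every sample correlated best with its own number. A replicate block cannot change an L2FC in this balanced design (1.20 for Gabra5, 1.22 for Gabrb1); with it the FDR in limma was 0.980 for both. With 3 samples a group, the smallest exact permutation p was 0.10, so single-gene permutation tests could not pass 0.05.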
